A study of Mus musculus with 8 samples.

Results

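The subject is 10 protein-coding mRNAs that had high values with antisense probes against the long noncoding RNA Lhx1os: Rnf5, Vps26a, Shisa5, Ptma, Gpx1, Maged2, Erp29, Itm2a, Otub1 and Casq1. They were chosen by the measured values themselves, as genes whose counts in 1 or both Lhx1os pull-downs stood above those with LacZ control probes in these same libraries. They are 10 of 55471 gene identifiers in the count table and 10 of the 16524 genes that passed the filter on low counts, of which 13450 are protein-coding. Those pull-down values over LacZ are therefore given as a description, and no test of them is used as support.

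The cells were mouse HBG3 embryonic stem cells with the HB9::GFP reporter, in which a motor neuron promoter drives green fluorescent protein. They had been differentiated into spinal motor neurons, dissociated with papain and kept for 3 more days with BDNF, CNTF, GDNF and a Rhok inhibitor. All 4 groups came from such cultures. Input was total RNA, the ODD and EVEN groups were pull-downs with separate sets of biotinylated antisense probes of 20 nt against all Lhx1os isoforms, and the LacZ group was a pull-down with probes against the bacterial LacZ mRNA. Each group had 2 libraries, replicates 1 and 2 from 2 independent experiments. The labels name 1 stem cell line, so the spread between replicates is that between experiments on this line.

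In this assay, short DNA probes pair with the target RNA and are drawn out on a solid support together with whatever is bound to them. An RNA can be recovered because it is attached to the target, or because a probe pairs with it directly. Probe sets with no probe in common are used so that RNAs recovered with 1 set and not the other can be seen. The series concerns the part of low-complexity repeats in contacts between RNAs.

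The proteins that the 10 mRNAs encode have unlike roles. Rnf5 is a ubiquitin ligase anchored in the endoplasmic reticulum membrane, Erp29 is a chaperone of the reticulum lumen, and Otub1 is a deubiquitinase that also restrains ubiquitin-conjugating enzymes. Vps26a is a subunit of retromer, which sorts membrane proteins out of endosomes. Itm2a and Shisa5 are membrane proteins, the first with a BRICHOS domain and the second known as a p53 target. Ptma, or prothymosin alpha, is a very acidic histone-binding protein of the nucleus, Maged2 belongs to the MAGE family, and Gpx1 is the selenium-containing glutathione peroxidase that reduces peroxides. Casq1 is the calcium-binding protein of the calcium store of skeletal muscle.

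Total counts were between 7632775 and 24628435, with the Input libraries the deepest. All 8 motor neuron markers examined (Mnx1, Isl1, Isl2, Lhx3, Lhx4, Chat, Slc18a3, Slc5a7) had counts in each library, and their summed level was 72.5 to 78.1 FPKM in the replicate 1 libraries and 113 to 126 FPKM in those of replicate 2. FPKM is the deposited count scaled by gene length and by the total count of the library. The 5 glial markers summed to 48.6 to 67.1 FPKM in replicate 1 and 24.0 to 25.2 FPKM in replicate 2, a difference that came mostly from the myelin gene Mbp (in LacZ 30.3 and 5.08 FPKM). The astrocyte gene Aldh1l1 had 18.1 and 19.7 FPKM in LacZ, Gfap and Aqp4 were at most 0.213 FPKM, and Mog was at 0 in 6 of the 8 libraries. The 5 neural progenitor markers (Sox2, Nes, Olig2, Vim, Pax6) summed to more than the motor neuron markers, 611 to 709 FPKM in replicate 1 and 474 to 558 FPKM in replicate 2. Of these, Olig2 had 144 and 53.9 FPKM in Input. The 5 cartilage and connective tissue markers summed to 87.0 to 137 FPKM and 46.7 to 65.2 FPKM. Most of this sum was Sox9 alone, at 118 and 56.1 FPKM in Input. The other 4 were low there: Col1a1 had 9.49 and 5.53 FPKM, Col2a1 4.83 and 1.63, Col1a2 4.07 and 2.00, and Acan 0.0544 and 0.0196. In bulk RNA fewer cells of a type and less RNA per cell cannot be told apart. Skeletal muscle markers, 11 genes of which 2 (Myf5 and Tnni2) were at 0 in all libraries, summed to between 0.9 and 2.55 FPKM. Between EVEN and LacZ the motor neuron sums were 78.1 and 77.4 FPKM in replicate 1 and 113 and 119 FPKM in replicate 2, and the glial sums 51.2 and 48.6 FPKM and 25.2 and 25.1 FPKM. The part of these differences between replicates in the values below was not tested. The captured RNA itself had 2.27 and 2.97 CPM (counts scaled to a common library size after TMM normalization) in Input, 2.06 and 2.44 CPM in LacZ, 180.1 and 35.7 CPM in ODD and 149.5 and 25.4 CPM in EVEN, for replicates 1 and 2. Recovery of Lhx1os was thus larger in replicate 1 with both probe sets.

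The sequences below come from GENCODE M21 transcripts on GRCm38 and are shown because Itm2a and Otub1 share a stretch at the same place of Lhx1os, where Maged2 and Ptma are the next closest of the 10. The first line is bases 105 to 124 of the longest Lhx1os isoform (599 nt, chr11:84534519-84534538, plus strand), counted from its 5′ end. The other lines are the closest windows of the mRNAs, with capitals for bases equal to Lhx1os and lower case for the rest.
Lhx1os: GTGAGGATGACAACAGTACC
Itm2a: GTGAGGATGACAACAtTgCC
Otub1: cTGAGGATGACAACAtctaC
Maged2: aaGAGGATGgCAACAGTgaC
Ptma: aTGAGGATGACtAgAcagCa

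Itm2a shared 15 nt without a break with Lhx1os (bases 105 to 119), in the coding sequence of exon 3 of 6. Its window lies at chrX:107399165-107399184, minus strand. Otub1 shared 14 nt of the same stretch (bases 106 to 119), in the coding sequence of exon 3 of 7, and its window lies at chr19:7204073-7204092, minus strand. The window of Maged2 was coding sequence at chrX:150811144-150811163, minus strand, with 3 mismatches in the 15 nt. That of Ptma spanned a splice junction and the end of the coding sequence, between chr1:86529800 and 86530018 on the plus strand, also with 3 mismatches in the 15 nt. At most 1 mismatch to the 15 nt was found in 16 of 13450 coding genes (0.119%), Itm2a and Otub1 among them, and at most 3 mismatches in 12.3%. Casq1, Erp29, Shisa5 and Vps26a had 4 mismatches, and Rnf5 and Gpx1 had 5. At most 4 mismatches were found in 58.1% of coding genes, so these 6 mRNAs held no close copy of the stretch. This place was picked after the values had been seen. The probe sequences were not used here, and whether a probe pairs at these bases was not tested.

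In EVEN, each of the 10 mRNAs was above both LacZ libraries in both replicates, and replicate 1 was the higher EVEN library for all 10. Of all genes tested, 1633 (9.88%) had both EVEN libraries above both LacZ libraries. A gain was counted where (CPM + 1) was at least 2-fold that of the LacZ library of the same replicate. Gains in both replicates were held by 8 of the 10 mRNAs, against 22 of 16524 genes (0.133%). Taken alone, replicate 1 gave 10 of the 10 (0.926% of all genes) and replicate 2 gave 8 (0.236%). Otub1 and Maged2 had a gain in replicate 1 only, like 148 genes (0.896%) with a gain in exactly 1 replicate. In ODD, Gpx1 and Erp29 had gains in both replicates, against 4 genes of all tested (0.0242%), and none of the 10 had a gain in 1 ODD replicate alone, a pattern that 170 genes (1.03%) had. Each ODD replicate alone gave the same count of 2, beside 1.03% of all genes in replicate 1 and 0.0424% in replicate 2. Both ODD libraries were above both LacZ libraries for Gpx1, Erp29, Ptma and Shisa5, as they were for 8.28% of all genes. Since these values chose the genes, the shares describe the choice.

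**Figure D1:**
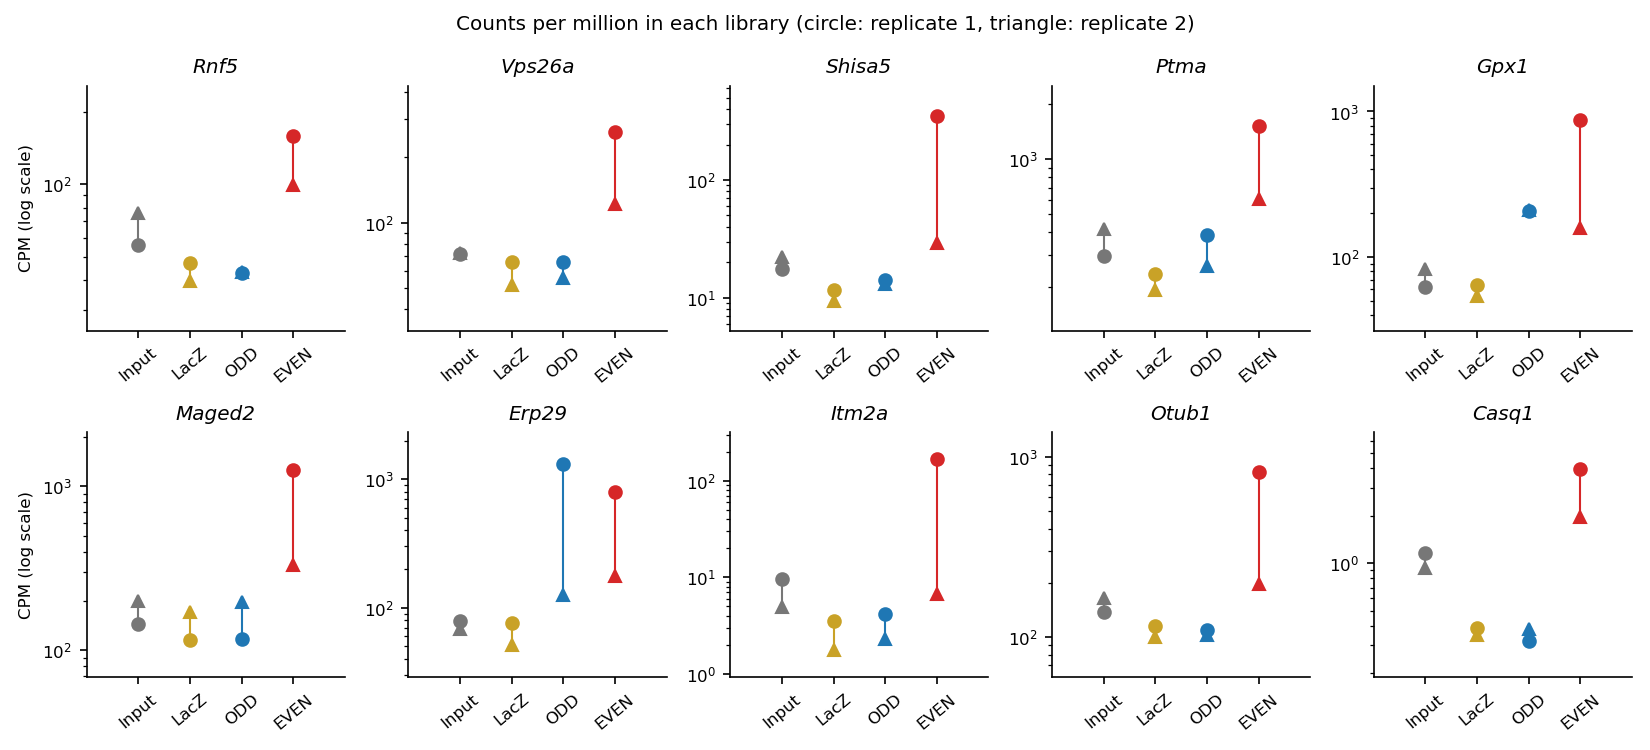
CPM of the 10 mRNAs in each library on a log axis, with circles for replicate 1, triangles for replicate 2 and a line joining the replicates of a group (n = 2). The EVEN points lie above the LacZ points in each panel, and the replicate 1 point is the higher EVEN point in all 10.

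The ubiquitin ligase mRNA Rnf5 (ENSMUSG00000015478, chr17:34601091-34603690, minus strand) had 159 and 99.1 CPM in EVEN, 43.0 and 43.1 CPM in ODD, 47.1 and 39.7 CPM in LacZ, and 55.7 and 75.7 CPM in Input. Both EVEN libraries were the highest of the 8, and the ODD libraries lay within the range of LacZ. The ratio of EVEN to LacZ was 3.38 in replicate 1 (exact binomial 95% interval 3.02 to 3.79) and 2.50 in replicate 2 (2.24 to 2.79). These intervals and those below cover counting error only, since reads without molecular identifiers are not independent molecules. Of the 10 mRNAs, Rnf5 had the smallest distance between its replicates: EVEN replicate 1 was 1.60 times EVEN replicate 2 on the (CPM + 1) scale.

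The chaperone mRNA Erp29 (ENSMUSG00000029616, chr5:121428590-121452506, minus strand) was the only 1 of the 10 whose highest library was not EVEN replicate 1. It had 1314 and 125 CPM in ODD, 798 and 175 CPM in EVEN, 76.3 and 50.9 CPM in LacZ, and 78.9 and 68.1 CPM in Input. All 4 Lhx1os pull-downs lay above all LacZ and Input libraries, and replicate 1 was several times replicate 2 with both probe sets. The ratio to LacZ was 17.2 (15.9 to 18.7) and 2.46 (2.23 to 2.72) in ODD, and 10.5 (9.63 to 11.4) and 3.44 (3.13 to 3.78) in EVEN. Without ODD replicate 1 the log2 fold change of ODD over LacZ was 0.98 (SE 0.75), against 3.50 (SE 1.13) with all libraries. The gene overlaps Naa25 on the opposite strand over 1586 nt of exon sequence. Naa25 had 77.3 and 113 CPM in ODD, 79.4 and 112 CPM in EVEN and 92.3 and 101 CPM in LacZ, without the rise of Erp29. Tmem116, which also overlaps Erp29 on the opposite strand, had 1.45 and 0.865 CPM in ODD, 0.846 and 0.449 CPM in EVEN, and 1.03 and 0.522 CPM in LacZ. Whether counting used the strand is not known, so how reads of the overlaps were shared was not tested.

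The deubiquitinase mRNA Otub1 (ENSMUSG00000024767, chr19:7198202-7206316, minus strand) had 821 and 198 CPM in EVEN, 109.7 and 104 CPM in ODD, 116 and 100.3 CPM in LacZ, and 138 and 165 CPM in Input. EVEN replicate 1 stood apart, and EVEN replicate 2 was the next highest library. The EVEN ratio to LacZ was 7.07 (6.60 to 7.57) in replicate 1 and 1.98 (1.84 to 2.13) in replicate 2, just under the 2-fold bound. On the (CPM + 1) scale its log2 ratio in replicate 2 was 0.98, and Casq1, just inside the bound, had 1.14.

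The retromer mRNA Vps26a (ENSMUSG00000020078, chr10:62455235-62486805, minus strand) had 262 and 122 CPM in EVEN, 66.0 and 55.7 CPM in ODD, 66.3 and 52.0 CPM in LacZ, and 71.6 and 72.7 CPM in Input. Both EVEN libraries were above the other 6, which lay close together. Its EVEN ratio to LacZ was 3.95 (3.60 to 4.35) in replicate 1 and 2.35 (2.13 to 2.59) in replicate 2.

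The membrane protein mRNA Itm2a (ENSMUSG00000031239, chrX:107397099-107403376, minus strand) was the most uneven. It had 168 and 6.74 CPM in EVEN, 4.18 and 2.31 CPM in ODD, 3.48 and 1.74 CPM in LacZ, and 9.60 and 4.87 CPM in Input. EVEN replicate 1 was 15.9 times the next library, Input replicate 1, on the (CPM + 1) scale. EVEN replicate 2 was above both LacZ libraries and lay between the Input libraries. The replicate 2 ratio of 3.87 rested on 75 counts against 20, with an interval of 2.34 to 6.70.

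Shisa5 (ENSMUSG00000025647, chr9:109038565-109057777, plus strand) showed the same form, with 349.6 and 29.3 CPM in EVEN, 14.1 and 13.1 CPM in ODD, 11.6 and 9.49 CPM in LacZ, and 17.4 and 22.0 CPM in Input. EVEN replicate 1 was 11.6 times EVEN replicate 2, the next highest library, on the (CPM + 1) scale. The ratio to LacZ was 30.1 (24.5 to 37.6) and 3.09 (2.48 to 3.87). For Shisa5 and Itm2a most of the EVEN mean thus came from 1 library, with a gain of smaller size in the other.

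Prothymosin alpha mRNA (Ptma, ENSMUSG00000026238, chr1:86526726-86530712, plus strand) was the most abundant of the 10 per length. It had 1518 and 605 CPM in EVEN, 384 and 259 CPM in ODD, 235 and 192 CPM in LacZ, and 296 and 415 CPM in Input. Both ODD libraries were above both LacZ libraries, by ratios of 1.63 (1.55 to 1.72) and 1.35 (1.28 to 1.43), and lay under the 2-fold bound. The EVEN ratios were 6.46 (6.16 to 6.78) and 3.15 (3.00 to 3.31). Ptma has 12 near-identical copies on the same strand among the annotated transcripts (at least 90% identity over at least 200 nt), of which 2 passed the filter on low counts. The pseudogene Gm9800 had 11.5 and 3.15 CPM in EVEN and 0.516 and 1.48 CPM in LacZ, and Gm4617 had 10.9 and 3.33 CPM against 1.42 and 1.31 CPM. No source used here says how reads were split between such copies, and the Ptma value is uncertain to that extent.

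The MAGE family mRNA Maged2 (ENSMUSG00000025268, chrX:150806370-150814345, minus strand) had 1258 and 330 CPM in EVEN, 117 and 197 CPM in ODD, 116 and 172 CPM in LacZ, and 144 and 200 CPM in Input. Replicate 2 was the higher library in Input, LacZ and ODD, and replicate 1 in EVEN. Its EVEN ratio to LacZ was 10.8 (10.1 to 11.6) in replicate 1 and 1.92 (1.82 to 2.03) in replicate 2. Only replicate 1 thus passed the 2-fold bound. EVEN replicate 2 lay just under that bound, which its interval includes, and was the next highest library.

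Gpx1 mRNA (ENSMUSG00000063856, chr9:108338903-108340343, plus strand) was even between the ODD replicates. It had 208 and 211 CPM in ODD, 868 and 158 CPM in EVEN, 64.5 and 54.1 CPM in LacZ, and 62.7 and 82.9 CPM in Input. All 4 Lhx1os pull-downs were above all LacZ and Input libraries, and the order of ODD and EVEN differed between the replicates. The ODD ratio to LacZ was 3.23 (2.94 to 3.56) and 3.91 (3.58 to 4.29), and the EVEN ratio 13.5 (12.3 to 14.8) and 2.92 (2.66 to 3.20).

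Casq1 (ENSMUSG00000007122, chr1:172209894-172219868, minus strand) was a gene of few counts, with 47 and 22 in EVEN, 4 and 4 in ODD, 3 and 4 in LacZ, and 28 and 19 in Input. These correspond to 3.98 and 1.98 CPM in EVEN and 0.387 and 0.348 CPM in LacZ. Both EVEN libraries were the highest, and both LacZ and both ODD libraries lay below Input. The ratio of EVEN to LacZ was 10.3 in replicate 1 with an interval of 3.31 to 51.6, and 5.68 in replicate 2 with an interval of 1.93 to 22.7.

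**Figure D2:**
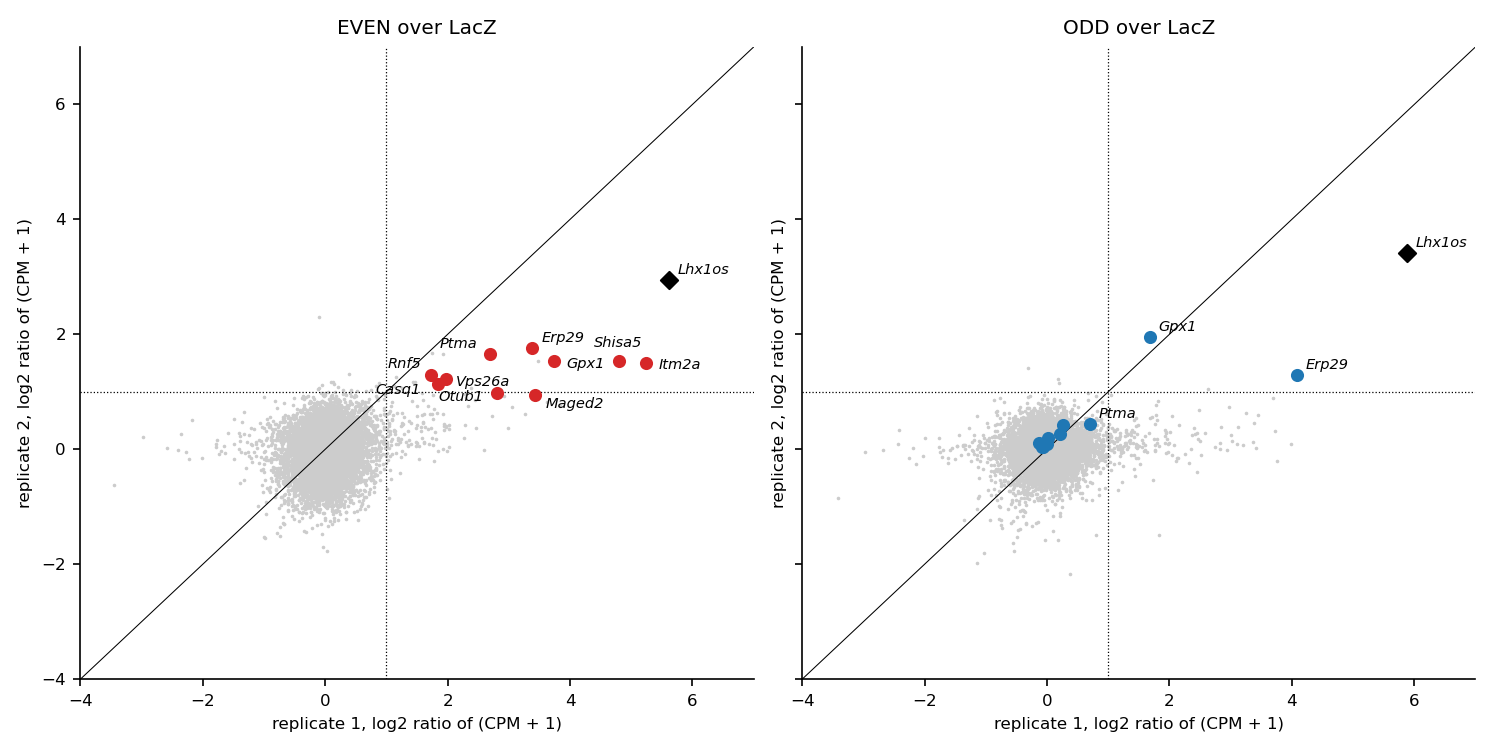
Log2 ratio of (CPM + 1) over the LacZ library of the same replicate, replicate 1 on the x axis and replicate 2 on the y axis, for EVEN (left) and ODD (right). Grey points are all 16524 genes tested, coloured points the 10 mRNAs, the diamond Lhx1os, the dotted lines a 2-fold ratio and the solid line equal ratios. The 10 mRNAs lie below the line of equal ratios in EVEN, and Gpx1 and Erp29 lie past 2-fold on both axes in ODD.

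A library that stood at least 2-fold above each of the other 7 on the (CPM + 1) scale was most often replicate 1 of an Lhx1os pull-down. EVEN replicate 1 held this place for 49 of 16524 genes (0.297%), 7 of the 10 mRNAs among them (Vps26a, Shisa5, Ptma, Gpx1, Maged2, Itm2a and Otub1). ODD replicate 1 held it for 51 genes (0.309%), EVEN replicate 2 for 0 and ODD replicate 2 for 1. For Rnf5, Casq1 and Erp29 the highest library was 1.60, 1.67 and 1.64 times the next on the (CPM + 1) scale, and for Rnf5 and Casq1 that next library was EVEN replicate 2.

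Ranked by the lower of the 2 replicate ratios of EVEN to LacZ, Lhx1os came first of all genes tested and Erp29, Ptma, Shisa5, Gpx1, Itm2a and Rnf5 held ranks 2, 5, 7, 8, 9 and 10. Vps26a was at rank 12, Casq1 at 16, Otub1 at 24 and Maged2 at 28. Genes outside the set were interleaved with them, and Pop5 (1.67), Ccdc12 (1.66) and Cplx2 (1.53) had log2 ratios as high as those of the set. They are named after their values were seen.

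The fit with edgeR's quasi-likelihood test over all genes, whose p-values were adjusted with the Benjamini-Hochberg method, called 0 of 16524 genes (0%) in EVEN against LacZ, ODD against LacZ and EVEN against ODD, and so 0 of the 10. At an unadjusted p under 0.05 there were 283, 170 and 128 genes in these comparisons. The log2 fold change of EVEN over LacZ ran from 1.57 (SE 0.27) for Rnf5 to 5.10 (SE 1.41) for Itm2a, with a median of 2.70 over the 10 and 0.04 over coding genes. Of ODD over LacZ it was 3.50 (SE 1.13) for Erp29, 1.83 (SE 0.68) for Gpx1 and 0.59 (SE 0.44) for Ptma, and between -0.05 and 0.37 for the other 7. This fit used the group only. With the replicate number as a block, edgeR also called 0 genes in these comparisons, with 648, 369 and 348 at an unadjusted p under 0.05. EVEN over LacZ was then 4.41 (SE 0.97) for Itm2a, 2.54 (SE 0.71) for Erp29, 2.47 (SE 0.62) for Maged2 and 1.57 (SE 0.24) for Rnf5. Since these values chose the 10, any call of them below describes the choice and is not used as support. The call depended on the tool and the filter. With no filter beyond 1 count, edgeR called 10, 2 and 9 of the 10 in these comparisons (72, 75 and 50 of 28192 genes), DESeq2 called 7 (of 8 with an adjusted p), 0 and 2, beside 12 of 4991, 1 of 16524 and 2 of 16524 genes. With limma on log2(FPKM + 1), 0 genes and so 0 of the 10 were called in each. Without EVEN replicate 2, edgeR called 3 in EVEN against LacZ (Gpx1, Otub1 and Shisa5), of 5 genes called among 17122, and 2 in EVEN against ODD (Otub1 and Shisa5), of 3 genes called. Without EVEN replicate 1 it called 0, and the log2 fold changes of EVEN over LacZ then ran from 0.88 (SE 0.21, Otub1) to 2.41 (SE 0.56, Casq1), above 0 for all 10.

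Input took no part in the choice of the genes, while the pull-down libraries did. Against Input, the mean of EVEN was higher for all 10, by log2 fold changes of 0.97 (SE 0.27, Rnf5) to 3.59 (SE 1.26, Itm2a) with a median of 1.98, against -0.07 over coding genes. ODD was above Input for Gpx1, at 1.53 (SE 0.67), and Erp29, at 3.29 (SE 1.12), and below it for the other 8. LacZ was below Input for all 10, from -0.21 (SE 1.03, Erp29) to -1.51 (SE 1.31, Itm2a) with a median of -0.54, against -0.11 over coding genes. The high EVEN or ODD values and the low LacZ values chose the genes, and the comparisons share their Input and pull-down libraries. Calls of the 10 against Input are therefore a description too, and not independent of the choice. By edgeR 0 of the 10 passed the adjusted threshold against Input, where 935 genes (5.66%) were called for EVEN, 1130 (6.84%) for ODD and 1224 (7.41%) for LacZ. Higher calls made up 5.37%, 6.46% and 6.98% of the genes tested and lower calls 0.284%, 0.375% and 0.43%, in the same order. At an unadjusted p under 0.05 there were 3114, 3031 and 3130 genes. With the replicate number as a block, 6 of the 10 were called as higher in EVEN than Input (Casq1, Gpx1, Maged2, Ptma, Rnf5 and Vps26a), against 2123 genes (12.8%), and Erp29 as higher in ODD, against 2086 genes (12.6%). In that fit 19.3%, 19.2% and 19.7% of genes were called in EVEN, ODD and LacZ against Input, with lower calls at 6.41%, 6.55% and 7%, and higher calls for LacZ at 12.7%. DESeq2 called 7 as higher in EVEN than Input, beside 1244 of 16524 genes, and 0 in ODD, beside 1348 genes. Without EVEN replicate 2, edgeR called 7 as higher in EVEN than Input, beside 586 of 17122 genes, and without EVEN replicate 1 it called 0, beside 223 of 17099 genes.

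**Figure D3:**
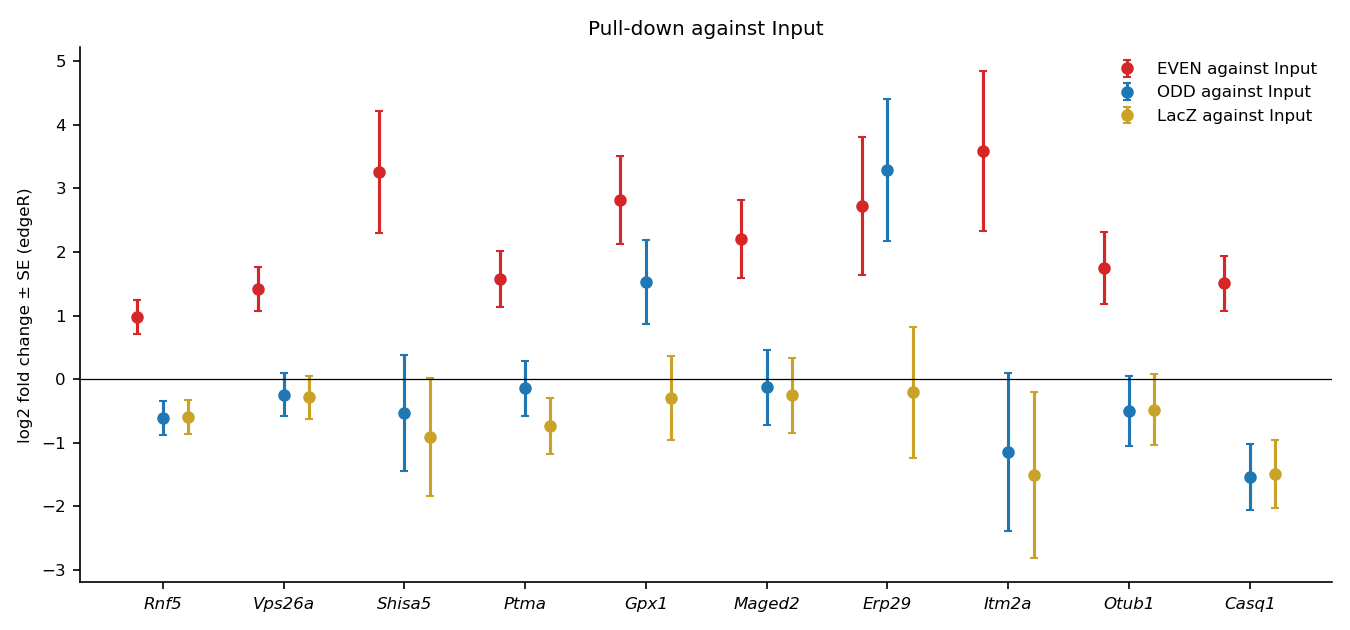
Log2 fold change over Input with its standard error from edgeR for EVEN (red), ODD (blue) and LacZ (yellow), 2 libraries a group. EVEN lies above 0 for all 10 mRNAs, LacZ lies below 0 for all 10, and ODD lies above 0 for Gpx1 and Erp29.

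Within replicate 2 alone the EVEN level was closer to Input. EVEN was 1.20 times Input for Otub1 (1.14 to 1.27), 1.31 times for Rnf5 (1.21 to 1.41), 1.33 times for Shisa5 (1.15 to 1.54) and 1.38 times for Itm2a (1.01 to 1.89). The highest ratio of the 10 was 2.57 (2.40 to 2.76), for Erp29. In replicate 1 the ratios of EVEN to Input ran from 2.86 (2.66 to 3.07) for Rnf5 to 20.1 (18.1 to 22.2) for Shisa5.

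In Input the 10 mRNAs covered nearly the whole range of coding genes by level per length. Ptma had 242 ± 60.0 FPKM (SD, n = 2) and rank 50 of 13450 coding genes. Otub1 (59.0 ± 8.16 FPKM), Maged2 (52.9 ± 12.8), Gpx1 (50.3 ± 10.4) and Rnf5 (44.0 ± 9.98) stood within a range that their spread did not separate, at ranks 594 to 926. Vps26a had 25.1 ± 0.535 FPKM, Erp29 8.05 ± 0.753, Shisa5 5.95 ± 1.04 and Itm2a 4.11 ± 1.86 FPKM. The Erp29 value was divided by a deposited length of 9060 nt, while its longest transcript has 5204 nt. Without the length, its mean Input level of 73.5 CPM was close to those of Gpx1 (72.8 CPM) and Vps26a (72.2 CPM). Casq1 had 0.529 ± 0.0764 FPKM, above 7.96% of coding genes, and 7 of the 10 were above the coding median of 7.40 FPKM. Their longest transcripts were short: 9 of the 10 were under the coding median of 3535 nt, and their own median was 1796 nt.

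**Figure D4:**
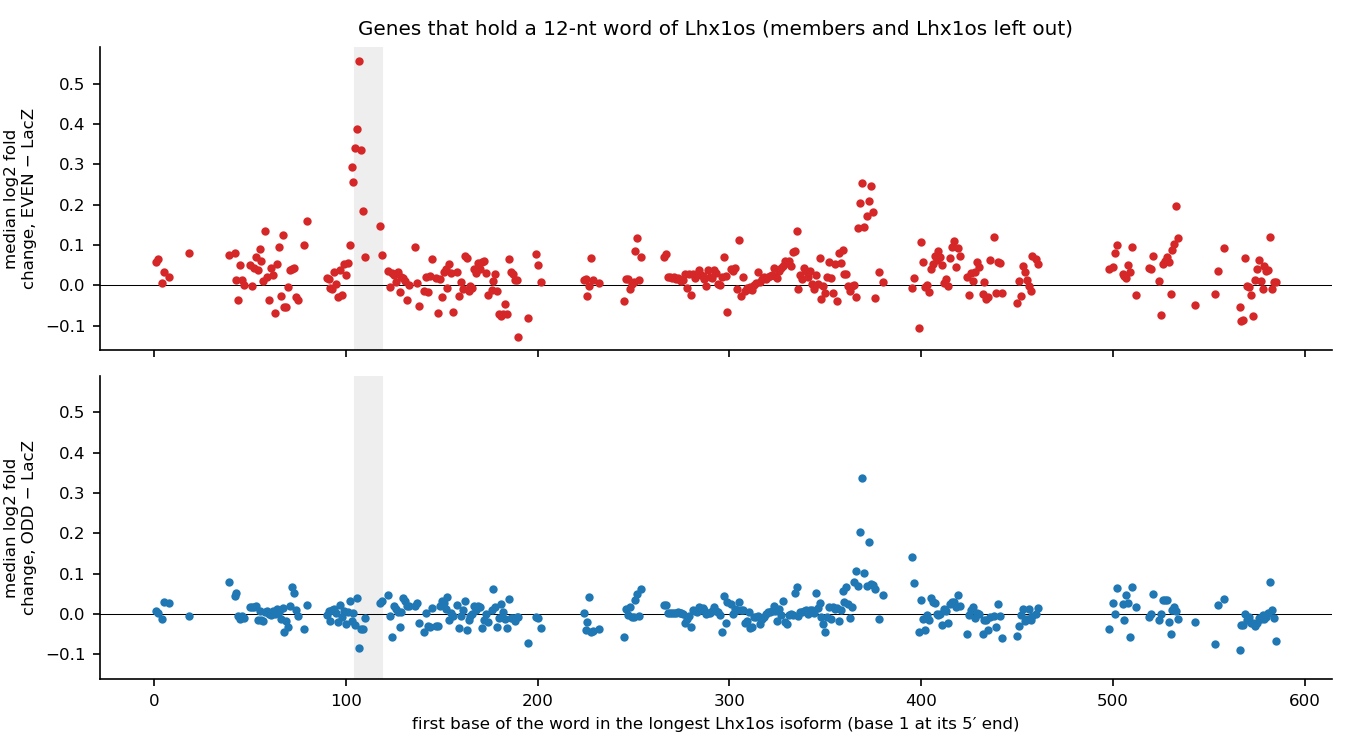
For each 12-nt word of the longest Lhx1os isoform that at least 10 other genes hold, the median log2 fold change of those genes over LacZ in EVEN (top) and ODD (bottom), by the first base of the word. The 10 mRNAs and Lhx1os were left out, and the grey band marks the 15 nt that Itm2a shares. The highest EVEN medians lie at the band, where the ODD medians lie near 0, and the highest ODD median lies at base 369.

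The stretch shown above was then followed in genes outside the set. Each 12-nt word of Lhx1os was looked up in the transcripts of all genes tested, leaving out the 10 mRNAs and Lhx1os, and 359 words were held by at least 10 genes. The 6 words with the highest median of EVEN over LacZ were those starting at bases 107, 106, 105, 108, 103 and 104, with medians of 0.56, 0.39, 0.34, 0.34, 0.29 and 0.26 over 17, 26, 18, 14, 10 and 11 genes. Over all words the median was 0.02. For ODD over LacZ these same words had medians between -0.08 and 0.04. In EVEN replicate 2 alone, on the (CPM + 1) scale, the 4 words within the 15 nt had ranks from 3 to 47 of 359, and in replicate 1 alone ranks 1 to 4. Neighbouring words share genes, so the 6 are not separate observations. Word lengths of 11, 12 and 13 nt and minimums of 3 and 10 genes were tried after the values had been seen. The top EVEN word started at base 107 with 11 nt and at base 106 with 13 nt and at least 3 genes. With 13 nt and at least 10 genes no word within the 15 nt had enough genes, and the top word started at base 373.

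At least 13 nt of the 14 that Itm2a and Otub1 both share with Lhx1os were found without a break in 11 other genes tested. The stretch was taken from Itm2a and Otub1 after the values had been seen. A gene with 13 nt of it also holds words whose medians are given above. The 11 genes are thus among those behind these medians, and their values are not a separate observation. EVEN over LacZ was above 0 for all 11, with a median of 0.64 and a range of 0.31 to 2.11, while ODD over LacZ was above 0 for 5, with a median of -0.03. Of all genes tested, 54.9% were above 0 in EVEN and 52.2% in ODD. For coding genes outside the set these shares were 61.1% and 54.9%. Tmem29 was the highest, at 2.11 (SE 0.66), with 211 and 43.5 CPM in EVEN, 29.2 and 32.6 CPM in ODD and 25.7 and 33.2 CPM in LacZ. Sltm, an RNA-binding protein gene, followed 6330549D23Rik (1.14, SE 0.62) with 1.08 (SE 0.37), and Mybbp1a had 1.03 (SE 0.31). All 11 were above LacZ in EVEN replicate 1, 9 were so in replicate 2 too, and 1 was above LacZ in both ODD replicates. The shares of all genes tested with these patterns were not counted. In replicate 2, Pskh1 (33.6 against 35.9 CPM) and 6330549D23Rik (1.26 against 1.39 CPM) were below LacZ. Of the 9 above it, Kcnip1 had 57.3 against 52.7 CPM and Dcaf1 123 against 87.2 CPM. None of the 11 was called by edgeR, and the values are a description of genes that share these letters. Counted by mismatches to the whole stretch that Itm2a shares, the EVEN values of coding genes outside the set were lower. With 1 mismatch, 12 of 14 such genes were above 0 in EVEN, with a median of 0.27, and 3 in ODD, with a median of -0.05. With 2 mismatches the medians over 149 genes were 0.08 in EVEN and 0.01 in ODD.

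**Figure D5:**
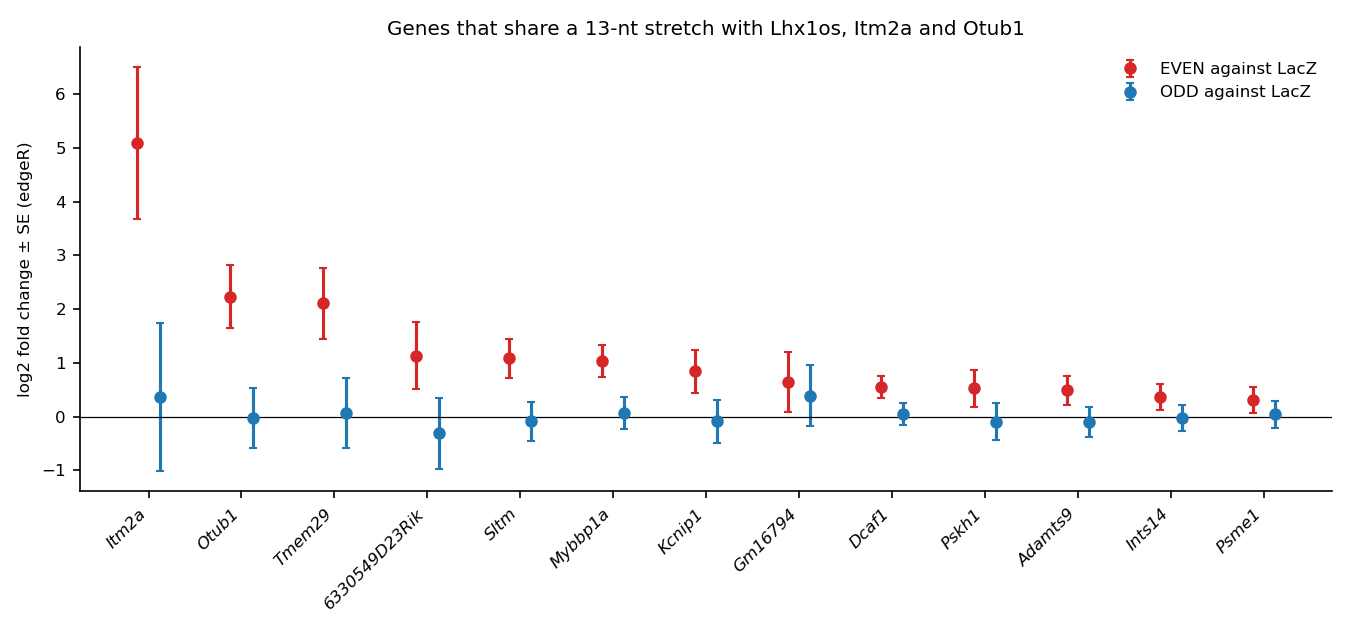
Log2 fold change over LacZ with its standard error from edgeR for EVEN (red) and ODD (blue) in Itm2a, Otub1 and the 11 other genes that share 13 nt with Lhx1os at the same place. All 13 EVEN points lie above 0, while the ODD points lie on both sides of 0 and between -0.31 and 0.39.

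The highest ODD medians lay elsewhere, at the words that start at bases 369, 368 and 373, with 0.34, 0.20 and 0.18 in ODD and 0.25, 0.20 and 0.21 in EVEN. The word at base 369 was held by 16 genes. Together these words span bases 368 to 384 of Lhx1os (chr11:84535599-84535615). The closest windows of Erp29 and Gpx1, which gained with both probe sets, and of Otub1, the closest of the 10, are shown with the same use of capitals.
Lhx1os: AGAGAAGTGTGAAGGAA
Erp29: tcctAAGTGTGAAGGAA
Gpx1: tGAGAAGTGcGAAGtgA
Otub1: AGAGAAGTtgGAAGGgA

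Erp29 shared 13 nt without a break at this place, in coding sequence at chr5:121445277-121445293, minus strand, and had 4 mismatches in the 17 nt. Gpx1 also had 4 mismatches, in coding sequence at chr9:108339860-108339876, plus strand. At most 4 mismatches were found in 18.8% of coding genes. Otub1 had 3 mismatches (2.63% of coding genes had at most 3), in the 3′ UTR at chr19:7198701-7198717, minus strand, and its ODD values were at the LacZ level. The other 7 had 5 to 7 mismatches. Among coding genes outside the set, 1 had 1 mismatch to the 17 nt, with 1.11 in EVEN and 1.42 in ODD. With 2 mismatches the medians over 32 genes were 0.11 in EVEN and 0.07 in ODD. With 3 mismatches they were 0.08 and 0.03 over 320 genes. The place was chosen after the values had been seen, from genes outside the set.

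Over the whole of Lhx1os, the longest stretch shared without a break on the same strand was 20 nt for Erp29, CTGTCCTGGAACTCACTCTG, which is bases 268 to 287 of Lhx1os. It lies at chr5:121430342-121430361, minus strand, in the 3′ UTR of 1 of 4 Erp29 transcripts, which is annotated as subject to nonsense-mediated decay. A stretch of at least 20 nt was found in 2.94% of coding genes, one of at least 15 nt (Itm2a) in 10.3% and one of at least 14 nt (Otub1) in 14.9%. The other 7 shared 9 to 11 nt, and the coding median was 11 nt. On the opposite strand, where the letters would pair with Lhx1os itself, Erp29 shared 16 nt (at least 16 nt in 6.79% of coding genes) and the other 9 shared 10 to 12 nt, with a coding median of 11 nt.

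Low-complexity sequence, the subject of the series, stood out in Ptma. The dustmasker program marked 20.3% of its longest transcript, against a coding median of 2.07% and 0% to 6.79% in the other 9. Its longest run of purines was 29 nt of coding sequence, chr1:86529519-86529547, plus strand, shown because it encodes the acidic part of the protein.
Ptma: GGGGAGGAAGAGGAGGAGGAGGAAGAAGG

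Runs of at least 29 purines were found in 8.37% of coding genes, and Itm2a also had one of 29 nt, in its 3′ UTR. Otub1 had a run of 46 pyrimidines in its 3′ UTR, a length reached by 3.42% of coding genes. The other 7 had no purine or pyrimidine run over 15 nt, and the coding median was 15 nt for both. Median GC content was 52.3% in the 10 and 49.7% in coding genes.

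Most genes of the same pathways and families stayed near the level of all genes, with some exceptions. Of 113 tested relatives in 9 lists, 0 were called by edgeR in EVEN against LacZ, ODD against LacZ or EVEN against ODD, and 1 (Os9) was called in LacZ against Input. Their median log2 fold change over LacZ was 0.08 in EVEN and 0.05 in ODD, against 0.02 and 0.01 over all genes tested. A value of at least 1 was reached by 3 of the 113 in EVEN and 2 in ODD, larger shares than the 0.884% of all genes in each, on few genes. By list, the highest EVEN median was that of the acidic nuclear chaperones related to Ptma, at 0.30 over 9 genes, against 0.05 in ODD. Pdia4, a relative of Erp29 named after its values were seen, had a lower replicate log2 ratio of EVEN to LacZ of 0.95, at rank 26. Among the relatives of Rnf5 and Erp29 with the highest Input level, the disulfide isomerase P4hb had 1.36 (SE 0.51) in EVEN and 0.54 (SE 0.50) in ODD, the lectin chaperone Canx had 0.88 (SE 0.42) and 0.62 (SE 0.42), and Calr and Vcp had 0.47 (SE 0.18) and 0.07 (SE 0.20) in EVEN. Anp32a, an acidic nuclear protein gene like Ptma that is named after its values were seen, had counts of 9463 and 2243 in EVEN, 1984 and 1575 in ODD and 1127 and 1271 in LacZ. Ptms, Npm1 and Set, of the same list, were at 0.05 (SE 0.25), 0.30 (SE 0.34) and 0.27 (SE 0.17) in EVEN. The closest paralogs stayed near 0 in EVEN: Itm2c was at 0.02 (SE 0.38), Itm2b at 0.04 (SE 0.39) and Maged1 at 0.17 (SE 0.24). Of the muscle calcium genes, Asph reached 1.11 (SE 0.73) in EVEN and 1.42 (SE 0.73) in ODD, with counts of 2644 and 506 in ODD, 1889 and 571 in EVEN, 410 and 516 in LacZ and 1591 and 1059 in Input. Asph was thus above LacZ mainly in replicate 1 with both probe sets.

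The genes whose log2(CPM + 1) over the 8 libraries was most like that of 1 of the 10 are given as a description, since libraries of a pair share an experiment. Otub1 and Shisa5 were each other's closest gene (Pearson r = 0.995), and Rnf5 was the closest to Casq1 (r = 0.970). The closest gene to Erp29 was the cohesin gene Rad21 (r = 0.989), with 2353 and 289.9 CPM in ODD, 1644 and 432 CPM in EVEN and 224 and 211 CPM in LacZ. For Gpx1 it was Rtca (r = 0.987), with 90.7 and 75.7 CPM in ODD, 233 and 82.5 CPM in EVEN and 43.7 and 39.1 CPM in LacZ. Rtca thus shared with Gpx1 the higher value in all 4 Lhx1os pull-downs. Pop5 was the closest to Rnf5 (r = 0.974), Paf1 to Vps26a (r = 0.984), Sec62 to Itm2a (r = 0.989), Ntmt1 to Ptma (r = 0.976) and the Ptma pseudogene Gm9800 to Maged2 (r = 0.989). The profile of Lhx1os itself was closest to Erp29 (r = 0.939) and Gpx1 (r = 0.893) among the 10, and farthest from Casq1 (r = 0.356).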

How the data were processed

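For 8 libraries the authors deposited raw counts by Ensembl identifier and, separately, FPKM values. The submitters' processing notes name cutadapt 3.2, Bowtie2 2.4.2, Picard, HTSeq 0.13.5 and GRCm38, with no role or order, and the labels' protocols describe a stranded total RNA kit with removal of ribosomal RNA. No source used here says whether counting used the strand. The deposited FPKM equalled the count divided by gene length and column total. Of 55471 identifiers, 55144 were found in GENCODE M21, the source of coordinates and transcripts.

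The members and lists were chosen with earlier results of these data known. Named genes were the 10 members, Lhx1os, the cell type markers, the gene most like each member, copies, overlapping genes, and from each list those with the highest Input FPKM. Outside this rule, Ccdc12, Cplx2, Os9, Pdia4 and Anp32a were named after their values were seen. So were the genes that share the stretch of Itm2a and Otub1. Counts were tested in all 8 libraries with edgeR 4.0.16 in R 4.3.3 (quasi-likelihood test, two-sided, TMM, filterByExpr by group, group only, adjusted p threshold 0.05), checked on simulated data. Alternatives used DESeq2 1.42.0, limma 3.58.1, other filters and left-out libraries. The shared stretches were searched in Python 3.11.15 and copies with BLAST 2.17.0. Replicate numbers pair the libraries, since the labels give them as batches of 2 experiments, and deviations of same-numbered libraries correlated with r from 0.517 to 0.719 over 6 pairs of groups. The main fit, which gave the standard errors in the figures, left this pairing out, and the fit with the replicate block took it in. Replicates of a group differed by more than sampling noise.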

Additional observations from a re-analysis of the deposited data

How the results depend on the processing

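By edgeR with the group only, which leaves out the pairing of replicates, 0 of the 10 mRNAs were called in each of the 6 comparisons. The pull-down values chose the 10, so their calls under any setting describe the choice and are not used as support. With no filter beyond 1 count, the counts were 10 in EVEN against LacZ, 2 in ODD against LacZ, 9 in EVEN against ODD, 9 in EVEN against Input, 2 in ODD against Input and 2 in LacZ against Input, the last lower than Input (Itm2a and Ptma). Over all 28192 genes of that setting 72, 75, 50, 1860, 2064 and 2118 were called, in the same order. DESeq2 gave 7 in EVEN against LacZ, 2 in EVEN against ODD and 7 in EVEN against Input, and DESeq2 without the filter, chosen after seeing the data, gave the same counts of 7, 2 and 7. Over all genes DESeq2 called 12, 2 and 1452, and 13, 2 and 1382 without the filter. The replicate block gave 6 in EVEN against Input and 1 in ODD against Input (3182 and 3169 of all genes), and with the block 0 of the 10 were called in the other 4 comparisons. With only the groups compared, 1 (Gpx1) was called in ODD against Input, among 709 of 16454 genes. Leaving out each library in turn gave 0 to 3 in EVEN against LacZ, 0 to 2 in EVEN against ODD, 0 to 7 in EVEN against Input (the highest values without EVEN replicate 2, where 5, 3 and 586 of 17122 genes were called) and 0 to 1 in ODD against Input (1 without ODD replicate 2, EVEN replicate 1 or EVEN replicate 2, among 624, 882 and 895 genes). RLE size factors, the filter of 50 counts in 2 libraries and limma at each pseudocount gave 0 in all 6. The cause of these differences was not tested.

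Gains in both replicates in EVEN held for 8 of the 10, and for 6 to 10 under the alternatives. In ODD they held for 2, and for 1 (Gpx1) when the lower ODD library was set against the higher LacZ library. Judged in 1 replicate alone, added after seeing the data, EVEN gave 8 to 10 and ODD 2. The EVEN fold change over LacZ was above 0 for each of the 10 under each setting with a value. With 2 libraries a group, a single high library decides most EVEN means, and Casq1 rests on few counts.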
